A study of Mus musculus with 12 samples.

Results

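The genes described here encode the proteins of the cytosolic ribosome, together with their close relatives by name. They were chosen by symbol: every gene of the platform annotation whose symbol begins with Rpl or Rps and a digit, the stalk genes Rplp0 to Rplp2, and Rpsa, leaving out Rpl39l, the Rps6k kinases and symbols that mark pseudogenes. Only probe sets with 1 symbol were used, and each gene was read by its brightest probe set over the 12 arrays. This gave 49 of the 18194 genes measured in this way: 21 proteins of the small subunit, 22 of the large subunit and 6 relatives or look-alikes. The rule uses no expression difference, but it was set with earlier results of these data known.

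RNA was measured in mouse embryonic stem cells, self-renewing cells of the early embryo, in which the gene for the transcription factor Ronin, Thap11, could be deleted. All cells carried Thap11 alleles flanked by loxP sites (Roninflox/flox) and all received tamoxifen at 0.25 uM. Knockout cells (CreERT2; Roninflox/flox) had in addition CreERT2, a form of Cre that is held outside the nucleus until tamoxifen is given, and control cells (Roninflox/flox) lacked it. Cells were collected after 1.5, 3 and 6 days, with 2 arrays in each of the 6 groups. The sample notes give 100000 cells plated on 10 square cm and a split on day 4. The split falls between the collections of days 3 and 6, so comparisons of day 6 with an earlier day also cross it. CreERT2 was present in all knockout samples and in no control sample, so an effect of CreERT2 or of the line and the loss of Thap11 cannot be told apart. The labels do not give the promoter of CreERT2, nor whether each line was 1 clone, nor whether the paired arrays stem from separate cultures.

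A cytosolic ribosome has a small subunit, which reads the messenger RNA, and a large subunit, which forms the peptide bonds. Each protein is present in a single copy except for those of the stalk, so cells make most of them in matched amounts, and their messages are among the most abundant of growing cells. Many of these messages begin with a run of pyrimidines, the terminal oligopyrimidine tract, through which growth signals set their translation. Ronin binds promoters with the co-regulator Hcfc1 at a conserved element that contains ACTACA and TCCCAG.

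Promoter sequence is shown for the 3 genes whose knockout difference passed the test on day 6 (Rps25, Rpl14 and Rplp0) and for Rpl38, a bright gene that did not pass. Each window runs from 60 bases before the annotated start to 30 bases after it, 5′ to 3′ on the gene's strand. Capitals mark the longest run of C and T that reaches within 20 bases of the start on either side. The sequences are from RefSeq (GRCm38.p6). The windows are Rps25 at chr9:44407654-44407743 (+), Rpl14 at chr9:120571457-120571546 (+), Rplp0 at chr5:115559407-115559496 (+) and Rpl38 at chr11:114668520-114668609 (+).
Rps25: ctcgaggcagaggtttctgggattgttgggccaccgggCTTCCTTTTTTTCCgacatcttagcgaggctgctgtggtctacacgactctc
Rpl14: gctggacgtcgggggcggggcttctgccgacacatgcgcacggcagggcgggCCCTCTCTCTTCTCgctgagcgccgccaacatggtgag
Rplp0: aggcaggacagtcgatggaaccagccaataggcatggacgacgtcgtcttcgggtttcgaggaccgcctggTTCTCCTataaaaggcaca
Rpl38: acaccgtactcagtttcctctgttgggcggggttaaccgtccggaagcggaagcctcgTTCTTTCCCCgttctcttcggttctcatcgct

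Each of the 4 windows held a run of at least 6 pyrimidines that reached within 20 bases of the annotated start. So did 29 of the 43 members with a promoter sequence (67.4%). The same held for 47.8% of the 27025 genes with a window. The runs in the windows of Rps25 and Rpl14 were each 14 bases long. That of Rps25 began at -22 and ended before the annotated start, and that of Rpl14 began at -8 and spanned it. Rplp0 had a run of 7 bases that began at 12, after the start. The run of Rpl38 began at -2 and spanned the start. Whether a run is the first part of the message was not tested.

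The Ronin element was searched on both strands from 250 bases before to 50 after each start. Its long form, ACTACA and TCCCAG with 2 bases of any kind between them, was in the windows of 0 of 43 members and of 1.18% of all genes. A looser form, ACTACA and CCCA with 3 bases of any kind between them, which every long form also matches, was in 2 of 43 (4.65%) and in 1.94% of all genes. The 2 were Rpl6 at chr5:121204430-121204470 (+) and Rpl41 at chr10:128549370-128549410 (-), shown with the match in capitals.
Rpl6: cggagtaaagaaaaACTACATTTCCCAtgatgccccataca
Rpl41: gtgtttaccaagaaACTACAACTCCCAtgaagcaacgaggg

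Relative to the start, the match began at -57 in Rpl6 and at -228 in Rpl41. Neither gene passed the test on any day: Rpl6 had log2 fold changes (knockout over control) of -0.01 on day 1.5, -0.05 on day 3 and -0.08 on day 6, and Rpl41 of 0.01, -0.01 and 0.01. Other elements known from ribosomal protein promoters were more frequent. CCGGAAG, the core bound by GABP and other ETS factors, was in 20 of 43 members (46.5%) against 9.93% of all genes. CTCGCGAG was in 6 of 43 (14.0%) against 1.04%, and the E-box CACGTG in 4 of 43 (9.3%) against 8.09%. A match is a description of the letters only. The windows of Rps6 at chr4:86857394-86857433 (-) and Rps28 at chr17:33824539-33824578 (-) are shown with CTCGCGAG in capitals.
Rps6: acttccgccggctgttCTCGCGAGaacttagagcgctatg
Rps28: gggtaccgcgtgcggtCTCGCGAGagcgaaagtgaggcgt

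Thap11 itself lay between 1181 and 1382 units on the 6 control arrays and fell to 327.4 and 354.2 on day 1.5, 110.2 and 92.72 on day 3 and 50.64 and 51.50 on day 6 in knockout cells. The values are RMA intensities, the array's brightness in arbitrary units on a linear scale. The summed intensity of 12 embryonic stem cell markers was 62137 to 66199 on all arrays. Single markers moved in both directions beneath this sum. On day 6 the log2 fold change was -0.62 for Dppa3, -0.44 for Klf4 and 0.41 for Sall4, each past the test. The summed intensity of 19 fibroblast or feeder cell markers ran from 1529 to 5440 and was lowest in controls of day 3. In knockout cells it was below the controls on day 1.5 and above them on days 3 and 6. Its brightest genes were Acta2 (146.53 to 1668.5), Tagln (174.59 to 1631.5) and Vim (525.0 to 1473.2). Defining collagens such as Col1a1 (at most 78.95) and Col3a1 (at most 13.24) stayed dim. For 20 extraembryonic endoderm markers the summed intensity ran from 6362 to 16642 and was lowest in controls of day 3. In knockout cells it was below the controls on day 1.5 (9330 against 13278) and above them on day 3 (7488 against 6368). Its brightest genes included Krt8 (up to 4078) and Sparc (up to 3478), whereas defining factors such as Gata4 (at most 43.87) and Sox17 (at most 67.73) stayed dim. The summed intensity of 11 primed epiblast markers ran from 9489 to 13105. In knockout cells it was below the controls on day 1.5 (10277 against 11039), above them on day 3 (12926 against 11681) and below them on day 6 (9509 against 11029). Its brightest genes were Dnmt3b (up to 6141) and Lefty1 (up to 3370), whereas Fgf5 was at most 32.58. The controls of day 3 stood apart: 27.3% of all genes differed between controls of days 3 and 1.5 and 27.5% between controls of days 6 and 3, against 1.57% between controls of days 6 and 1.5. The part of these shifts in the results below was not tested.

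The ribosomal protein genes were among the brightest on the array. Their median intensity was 19342, against 113.6 for all genes, and 37 of the 49 lay above 10000. They made up 23.3% of the 159 genes above that level. The other 12 lay below 4000, and none lay in between. The brightest were Rplp2, a stalk protein, with 25464 to 27173, Rpl41, a very short large subunit protein, with 24346 to 26803, Rps2 with 24058 to 26211, and Rps29. The highest value of any probe set on the arrays was 34993, and the maximum of each array was at least 33477, with 7 arrays at the same maximum of 34062. RMA equalises the distributions of arrays, so shared maxima can come from the processing. Array signals are known to flatten near the top of their range. Whether they were saturated was not tested, since scanner values were not used here.

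**Figure D1:**
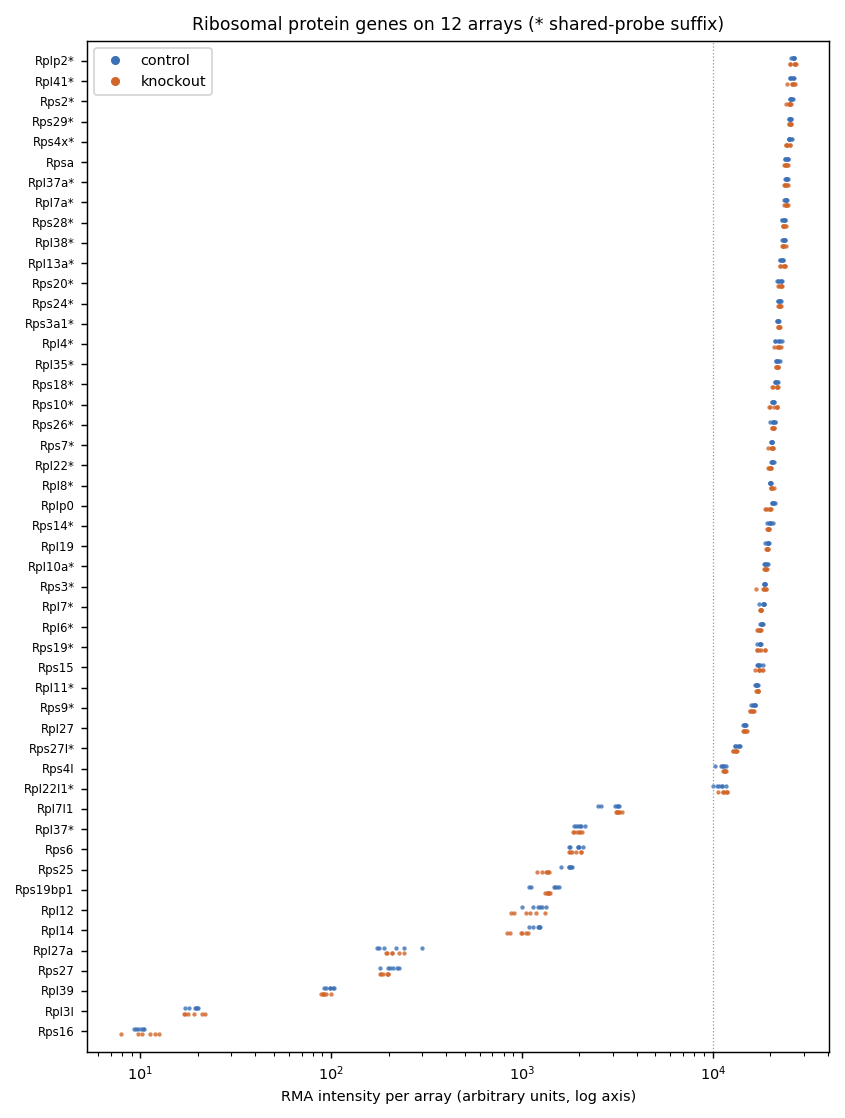
Intensity of each of the 49 genes on each of the 12 arrays (log axis, arbitrary units), with controls in blue and knockout cells in orange and genes ordered by mean. A star marks a probe set whose suffix means that its probes can match several transcripts, and the dotted line marks 10000. The 37 genes above the line have points that nearly coincide, and the 12 below 4000 are spread more widely.

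The probe sets limit which gene a value can be credited to. The suffix marked probes shared between transcripts for 32 of the 49 genes (18 ending in _a_at, 2 in _s_at and 12 in _x_at). An _a_at suffix stands for transcripts of the same gene, so by itself it does not make the gene unclear. The other 2 suffixes can stand for transcripts of different genes. Of the 79 proteins of the 2 subunits, 43 are members. Another 27 were present only on probe sets with several symbols, among them Rpl5, Rpl3 and Rplp1, and these are not named with values. Fau, whose product holds the small subunit protein S30, has its own probe set but a symbol outside the rule, and 8 had no probe set under their symbol.

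The 12 dim members were 9 proteins of the subunits (Rps6, Rps16, Rps25, Rps27, Rpl12, Rpl14, Rpl27a, Rpl37 and Rpl39) and 3 relatives (Rpl7l1, Rps19bp1 and Rpl3l). For each of the 9, a brighter probe set lists the gene beside other symbols, and its signal cannot be credited to 1 gene. The values of these 9 genes come from the dimmer probe sets, those with 1 symbol. Rps16, at 7.91 to 12.59, lay in the range of the dimmest probe sets on the array.

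Across all 12 arrays the bright members hardly varied. The log2 range from the lowest to the highest array was 0.04 to 0.25 in the 37 bright genes, with a median of 0.088, and 0.21 to 0.78 in the 12 dim genes, with a median of 0.47. The members' summed intensity was 757480 and 757990 in knockout cells of day 3 and 768010 to 774530 in the other 10 arrays. It made up 5.97% to 6.24% of the summed intensity of all genes, with the highest shares in controls of day 3 (6.21% and 6.24%).

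Few ribosomal protein genes differed between knockout and control cells. On day 1.5, 0 of 49 rose and 3 fell (Rps25, Rpl14 and the look-alike Rps19bp1), which is 6.12%, against 9.91% of all genes (5.93% higher and 3.98% lower). On day 3, 2 rose (Rps19bp1 and Rpl7l1) and 2 fell (Rps25 and Rpl14), 8.16% against 23.4% (13.3% higher and 10.0% lower). On day 6, 0 rose and 3 fell (Rpl14, Rps25 and Rplp0), 6.12% against 32.5% (17.2% higher and 15.3% lower). The calls are at a limma adjusted p under 0.05. The members' median log2 fold changes were -0.0070, -0.024 and -0.011 on the 3 days, and those of all genes were 0.0029, 0.028 and -0.0013. The 95% interval of the fold change lay within 1.2-fold in either direction for 41, 40 and 42 of the 49 members. At an unadjusted p under 0.05 in limma the counts of called members were 5, 6 and 4 of 49. In the fit over all probe sets, 13, 20 and 13 of the 105 with 1 member symbol had such a p. Of all 45101 probe sets, 7395, 11249 and 13687 had one. In RNA from whole cultures, fewer cells of a kind and less RNA per cell cannot be told apart.

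**Figure D2:**
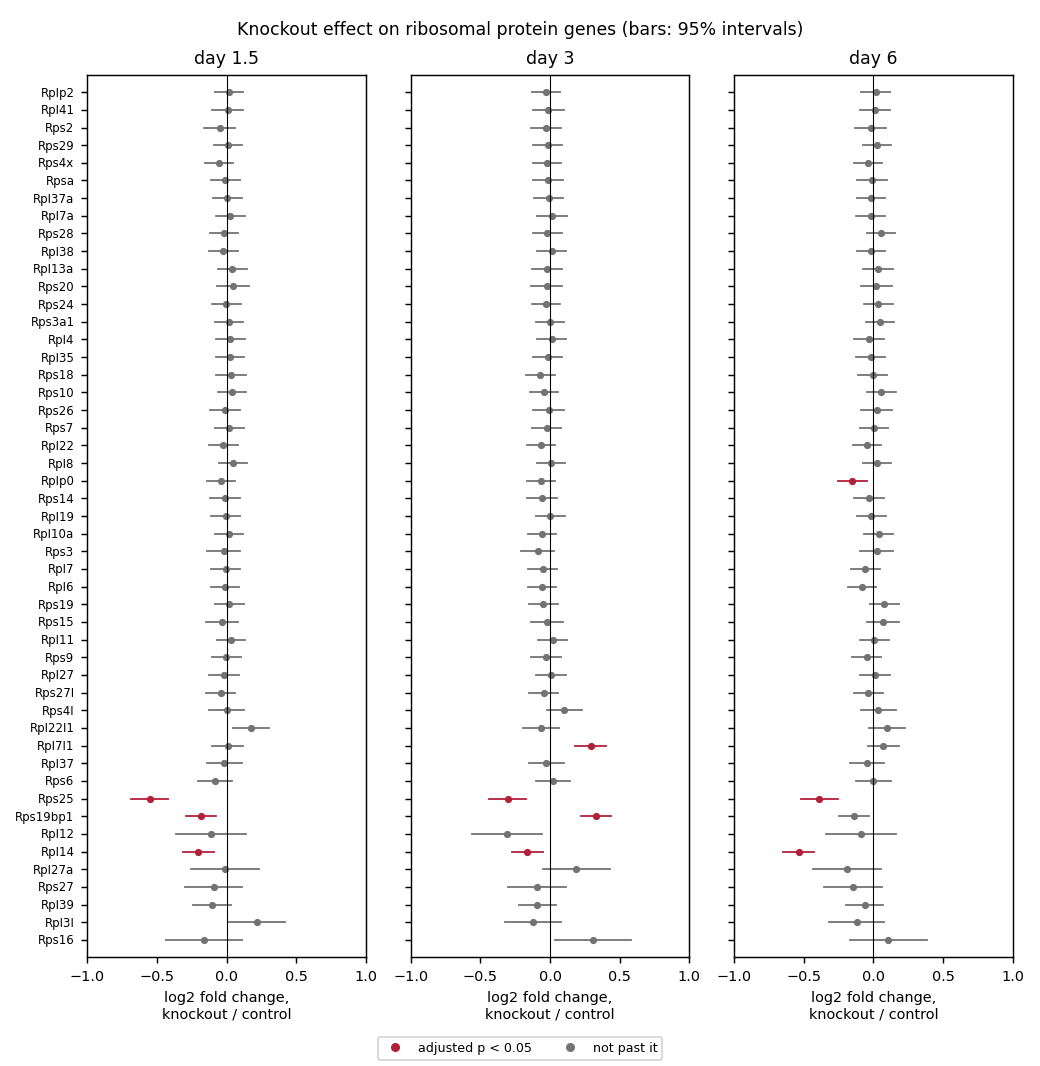
Log2 fold change of knockout over control cells for each of the 49 genes on days 1.5, 3 and 6, ordered by intensity with the brightest on top; bars are 95% intervals (2 arrays per group, limma). Red marks an adjusted p under 0.05. Among subunit proteins above 10000 only Rplp0 on day 6 is red, and the intervals widen toward the dim genes at the bottom.

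The counts depended on how limma shares the spread between genes. With a spread that follows intensity (trend and robust), the standard error of Rplp0 fell from 0.045 to 0.024, and 4, 10 and 7 members passed on the 3 days, against 15.1%, 28.9% and 36.6% of all genes. The gene added on day 1.5 was Rpl22l1 at 0.17. On day 3 the added genes were Rpl12 at -0.31, Rps4l at 0.10, and Rps3, Rps18, Rpl22 and Rplp0 at -0.09 to -0.07. On day 6 they were Rps19bp1 at -0.14, Rpl22l1 at 0.10, Rpl6 at -0.08 and Rps19 at 0.08.

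Of the small subunit proteins, 1 of 21 passed on each day, against 9.91%, 23.4% and 32.5% of all genes. It was Rps25, a protein of the subunit's head that some viral messages need for internal initiation. Its intensity was 1806 and 1822 in controls and 1271 and 1205 in knockout cells on day 1.5. On day 3 it was 1769 and 1607 against 1358 and 1376, and on day 6 it was 1787 and 1756 against 1377 and 1329. Every knockout array lay below every control array. The log2 fold changes were -0.55 ± 0.059, -0.30 ± 0.059 and -0.39 ± 0.059 (SE, limma adjusted p of 0.00094, 0.0056 and 0.00093). On day 3 the adjusted p was 0.059 when only the 4 arrays of that day were fitted. The effect of day 3 differed from that of day 1.5 by 0.25, which did not pass (adjusted p = 0.081). It passed in 4 other settings (0.0090 to 0.049): with a spread that follows intensity, without the dimmest genes, with a pseudocount of 16, and without the first control array of day 3. A brighter probe set that lists Rps25 beside other symbols had -0.02, -0.11 and -0.09 on the 3 days, none past the test (adjusted p of 0.92, 0.26 and 0.33 over all probe sets).

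The bright small subunit proteins lay close to their controls. Rpsa, which is also known as the laminin receptor, was at 24754 and 23856 in controls and 24254 and 24035 in knockout cells on day 1.5, and at 24549 and 24793 against 24648 and 24330 on day 6. Its log2 fold change on day 6 was -0.01, with an interval of -0.12 to 0.10. Rps19, the protein most often mutated in Diamond-Blackfan anaemia, was at 17673 and 17852 in controls of day 6 and at 18756 and 18751 in knockout cells; the groups do not overlap, but the difference did not pass. Rps6, the substrate of the S6 kinases, was read by a dim probe set, with 2099 and 1993 in controls of day 6 and 2049 and 2040 in knockout cells, which overlap. On day 3, 19 of the 21 small subunit proteins had a value below 0 and on day 6 the number was 9, whereas 7952 and 9142 of all 18194 genes did.

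Of the large subunit proteins, 1 of 22 passed on days 1.5 and 3 and 2 on day 6, against 9.91%, 23.4% and 32.5% of all genes. Rpl14, one of the large subunit's proteins, had the largest fall of any member on day 6. It was at 1217 and 1220 in controls and 1074 and 1045 in knockout cells on day 1.5, and at 1091 and 1136 against 999.8 and 989.2 on day 3. On day 6 it was at 1247 and 1228 against 870.2 and 836.3. Knockout arrays were the lower on each day, with the widest gap on day 6. The log2 fold changes were -0.20 ± 0.049, -0.16 ± 0.049 and -0.54 ± 0.049 (SE, limma adjusted p of 0.033, 0.040 and 4.3e-05). The effect of day 6 differed from that of day 1.5 by -0.33 ± 0.069 (adjusted p = 0.0093) and from that of day 3 by -0.37 ± 0.069 (adjusted p = 0.0073). The call of day 1.5 was lost without any of 8 of the 12 arrays (adjusted p of 0.052 to 0.17) and that of day 3 without any of the 12 (0.050 to 0.15), whereas that of day 6 was kept each time. A brighter probe set that lists Rpl14 beside another symbol had 0.0019, -0.04 and -0.12 on the 3 days, none past the test (adjusted p of 0.99, 0.77 and 0.20 over all probe sets).

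Rplp0, which forms the base of the stalk that recruits elongation factors, was the only protein among the bright members to pass. It was at 20529 and 20649 in controls and 20096 and 19970 in knockout cells on day 1.5, and at 20488 and 20649 against 19937 and 19387 on day 3. On day 6 it was at 21141 and 20895 against 18966 and 18872. The arrays do not overlap on any day. The log2 fold change on day 6 was -0.15 ± 0.045 (SE, limma adjusted p = 0.029), and those of days 1.5 and 3, at -0.04 and -0.07, did not pass. The call of day 6 was lost without any 1 of the 4 arrays of that day (-0.14 to -0.16, adjusted p of 0.090 to 0.13), and over all 45101 probe sets the adjusted p was 0.089. Rplp2, which binds Rplp0 in the stalk, had 26458 and 26555 in controls of day 6 and 26985 and 26612 in knockout cells, a log2 fold change of 0.02 that did not pass.

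**Figure D3:**
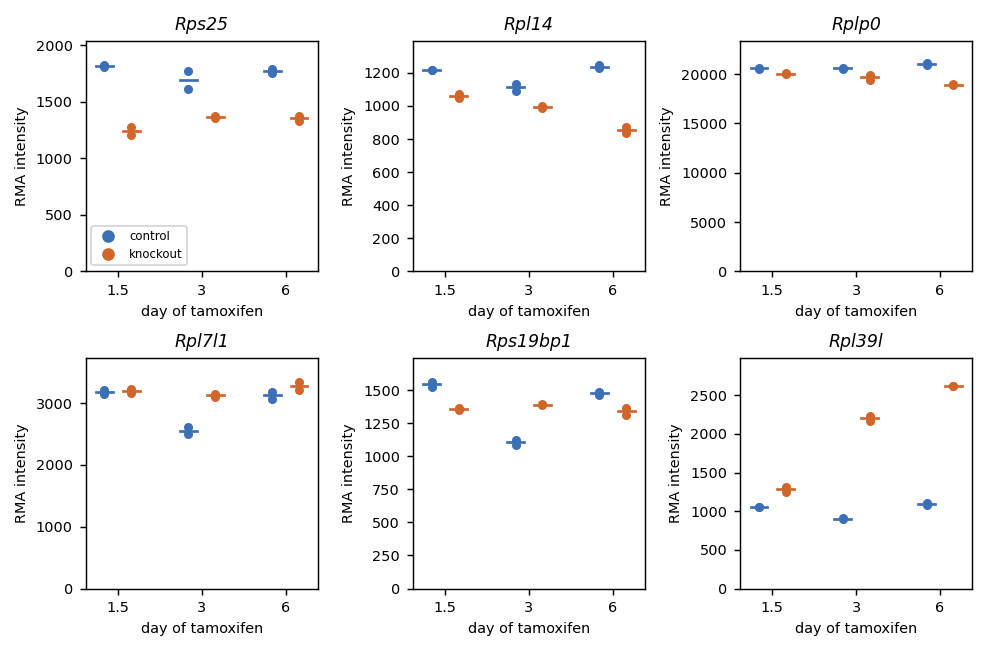
Intensity on each array for the 5 members that passed the test on any day and for Rpl39l, which lies outside the symbol rule (linear axes from 0, arbitrary units). Points are arrays, bars are means of 2, controls are blue and knockout cells orange. Rps25 is lower in knockout cells on each day and Rpl14 chiefly on day 6, whereas Rpl7l1 and Rps19bp1 differ on day 3, when the control values drop.

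Other large subunit proteins stayed near their controls. Rpl11, which together with Rpl5 can bind Mdm2 and so stabilise p53, was at 17038 and 16969 in controls of day 6 and 17248 and 16925 in knockout cells, which overlap. Rpl38, whose loss in mice alters the translation of Hox messages, was at 23372 and 23641 against 23186 and 23274, which do not overlap but did not pass. Rpl12, at the base of the stalk, was lowest in knockout cells of day 3, at 904.0 and 876.8 against 1209 and 1004 in controls, with a log2 fold change of -0.31 that did not pass (interval -0.56 to -0.05).

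Split by brightness, the 34 subunit proteins above 10000 had 0, 0 and 1 called by limma on the 3 days, and 0, 0 and 1 at an unadjusted p under 0.05. Their log2 fold changes on day 6 lay between -0.15 and 0.078, and each of the 34 intervals stayed within 1.2-fold on every day. This holds for the brightest probe set of each gene. Further probe sets of some of these genes passed on day 6, as given below, among them Rps9 and Rpl13a, lower, and Rps24, higher. On day 3, 27 of the 34 had a value below 0, though none passed. The number of all genes below 0 on that day is given above with the small subunit proteins. The day 3 median of all 375 probe sets above 10000, those of members included, was -0.0056. A common fall of the 34 was not tested. The 122 other genes above 10000 had 2, 19 and 27 called (1.64%, 15.6% and 22.1%). The 9 dim subunit proteins had 0 higher and 2 lower on each day, the same Rps25 and Rpl14, with medians of -0.10, -0.091 and -0.089. Of all genes, 9.91%, 23.4% and 32.5% were called on the 3 days. So few genes do not allow a reading of the share.

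**Figure D4:**
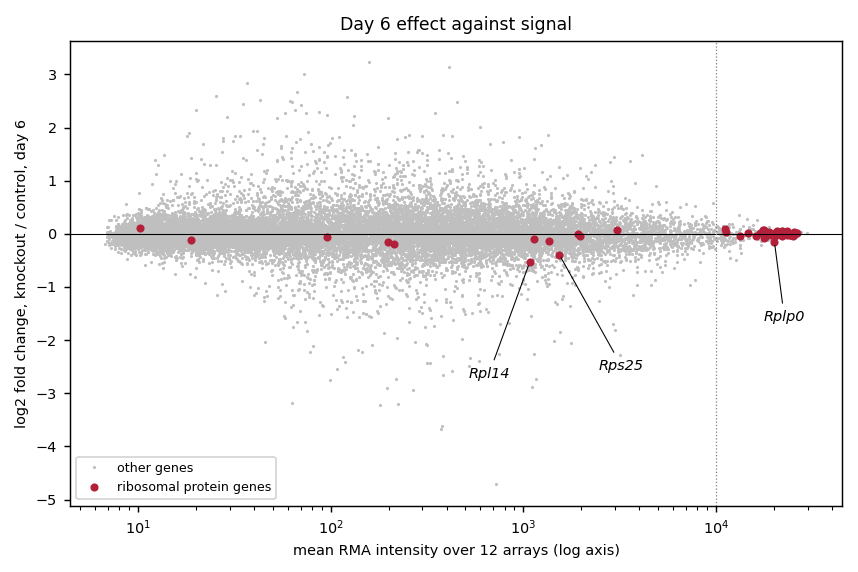
Log2 fold change of knockout over control cells on day 6 against the mean intensity over 12 arrays (log axis); each grey point is a gene and red points are the 49 ribosomal protein genes. The dotted line marks 10000. Rpl14 and Rps25 lie below 4000, Rplp0 lies among the bright members, and the bright members form a band of -0.15 to 0.10 around 0.

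The relatives and look-alikes included the 2 members that rose. Rpl7l1 is a relative of the large subunit protein Rpl7. It was at 2607 and 2504 in controls of day 3 and at 3142 and 3106 in knockout cells, a log2 fold change of 0.29 ± 0.050 (SE, limma adjusted p = 0.0030). The controls of the other days were at 3151, 3208, 3182 and 3066, and the knockout cells at 3165, 3226, 3216 and 3349. The knockout arrays of day 3 were thus within the range of the other days, and the controls of day 3 were the low ones. From day 1.5 to day 3 the controls fell by 0.32 ± 0.050 on the log2 scale (adjusted p = 0.0019). Against the controls of days 1.5 and 6 the day 3 knockout value was -0.01 (adjusted p = 0.87). In such a comparison genotype and day differ together, so their parts cannot be told apart.

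Rps19bp1 encodes a protein that binds Rps19 and is not part of the ribosome. It was at 1121 and 1088 in controls of day 3 and at 1395 and 1385 in knockout cells, a log2 fold change of 0.33 ± 0.048 (SE, limma adjusted p = 0.0011). Its controls were at 1561 and 1526 on day 1.5 and at 1466 and 1486 on day 6, and its knockout cells at 1367 and 1351 and at 1316 and 1368. The controls of day 3 were again the low group, with a fall of 0.48 ± 0.048 from day 1.5 (adjusted p = 0.00017). The difference of -0.18 on day 1.5 passed (adjusted p = 0.043) but was lost without any of 10 of the 12 arrays (0.061 to 0.18). That of -0.14 on day 6 did not pass (0.054), and against the controls of days 1.5 and 6 the day 3 value was -0.12 (0.065).

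The other 4 relatives did not pass on any day. Rpl22l1, the paralog of Rpl22, had 10035 and 10458 in controls and 11835 and 11293 in knockout cells of day 1.5, which do not overlap (0.17, interval 0.04 to 0.30, adjusted p = 0.097), and -0.06 and 0.10 on the later days. Rpl22 itself had log2 fold changes of -0.02, -0.06 and -0.04. Rps27l, the paralog of Rps27, was at 13027 and 13146 in controls of day 6 and 12738 and 12770 in knockout cells (-0.04). Rps4l, a copy of Rps4x, had -0.0004, 0.10 and 0.04. Rpl3l, the form of Rpl3 known from muscle, was at 17.00 to 21.82 on all arrays.

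Rpl39l, the paralog of Rpl39 known from the testis, was left out by the rule and moved more than any member on days 3 and 6. It was at 1054 and 1054 in controls and 1316 and 1254 in knockout cells on day 1.5, at 909.2 and 895.6 against 2233 and 2172 on day 3, and at 1102 and 1077 against 2624 and 2621 on day 6. The log2 fold changes were 0.29 ± 0.048, 1.29 ± 0.048 and 1.27 ± 0.048 (SE, limma adjusted p of 0.0076, 8.4e-07 and 2.9e-07). The call of day 1.5 was lost without the first knockout array of that day (0.063). Rpl39 was dim at 88.00 to 103.7 and had -0.10, -0.09 and -0.06, none past the test. Fau had -0.01, -0.03 and -0.01, and none passed.

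Controls also differed between days. Between controls of days 3 and 1.5, 0 of 49 rose and 2 fell (Rps19bp1 and Rpl7l1), 4.08% against 27.3% of all genes (18.2% lower). Between controls of days 6 and 1.5, 0 passed by limma, against 1.57% of all genes, and 1 had an unadjusted p under 0.05 (Rpl27a, which with the spread following intensity rose by 0.39). Between controls of days 6 and 3, 5 rose and 0 fell (10.2%), against 27.5% of all genes (19.5% higher). Rpl27a, a large subunit protein read by a dim probe set, was at 173.1 and 179.0 in controls of day 3 and at 298.0 and 239.9 in controls of day 6, which is 0.60 ± 0.11 (SE, limma adjusted p = 0.0035). The others were Rps19bp1 at 0.42 (adjusted p = 0.00040), Rpl7l1 at 0.29 (0.0031), Rps6 at 0.21 (0.020) and Rpl14 at 0.15 (0.046). Leaving out each array gave 3 to 4, and the call of Rpl14 was lost each time. None of the 5 is among the bright members, and the comparison shares its day 3 controls with the fall from day 1.5 and with the knockout difference of day 3. The knockout effect differed between days 3 and 1.5 for 2 members, both higher, against 15.0% of all genes (7.62% higher). Between days 6 and 3 it differed for 2, both lower, against 16.4% (8.75% lower), and between days 6 and 1.5 for 1, lower, against 19.3% (10.0% lower). These were Rpl7l1, Rps19bp1 and Rpl14. The probe sets for 18S ribosomal RNA, which carries no poly(A) tail, moved with day 3 in both genotypes: the 5′ part was at 326.5 and 283.0 in controls of day 1.5 and at 2098 and 4737 in controls of day 3. Its part in the day 3 values was not tested.

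The other probe sets of the same genes did not all follow the brightest. Of the 105 probe sets with 1 member symbol, in a fit over all 45101 probe sets, 3, 9 and 8 passed on the 3 days (2.86%, 8.57% and 7.62%), against 3.27%, 12.6% and 19.5% of all probe sets. The widest gap was in Rps24, a small subunit protein. Its brightest probe set had no call, but a dimmer one was at 673.8 and 675.6 in controls of day 6 and at 1344 and 1238 in knockout cells, which is 0.94 ± 0.090 (SE, adjusted p = 0.00010), and had -0.34 on day 3 (0.037). Rps3 had a dim probe set at -0.35 on day 1.5 (0.013) and 0.35 on day 6 (0.0026). These 2 changed sign between days.

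The second probe set of Rps9 was at 12909 and 12343 in controls of day 6 and at 9630 and 9823 in knockout cells, with -0.45 on day 3 and -0.38 on day 6 (limma adjusted p of 0.0030 and 0.0047). For Rpl13a one further probe set was at 9300 and 9023 against 7230 and 7155 on day 6, with -0.27 and -0.35 (0.014 and 0.0022), and another, with 12975 and 13319 against 11123 and 11270 on day 6, had -0.23 (0.018). The brightest probe sets of both genes, at 16551 and 16598 against 16038 and 16006 for Rps9 and at 23029 and 23237 against 23829 and 23542 for Rpl13a, did not pass. Whether Rps24, Rps3, Rps9 and Rpl13a pass therefore depends on the probe set. Rps10 had a further fall on a dim probe set, of -0.58 on day 3 and -0.27 on day 6, and for Rpl7l1 a dimmer probe set rose as well on day 3 (0.39).

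**Figure D5:**
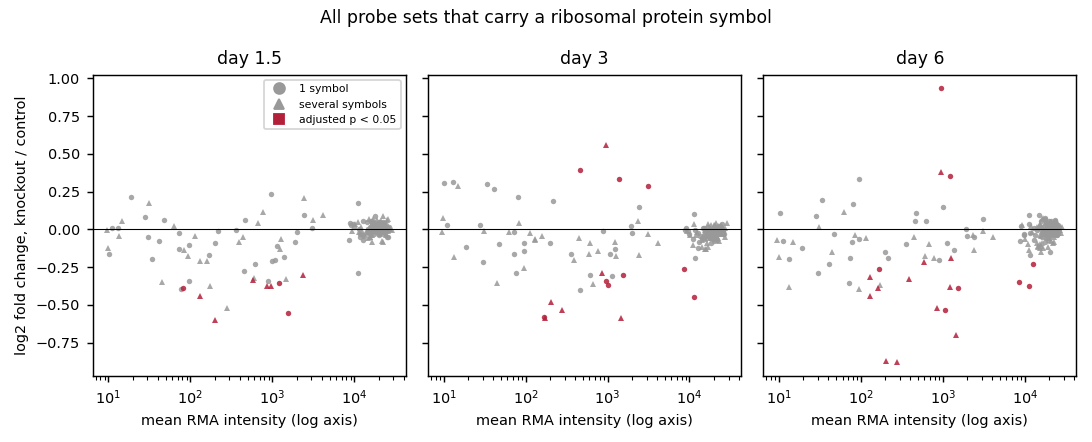
Log2 fold change against mean intensity (log axis) for all probe sets that list a ribosomal protein symbol, on days 1.5, 3 and 6. Circles carry 1 symbol (105), triangles carry several (110), and red marks a limma adjusted p under 0.05 over all 45101 probe sets. Above 10000 the points crowd around 0, and the red points lie mostly between 100 and 4000.

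The 110 probe sets with several symbols covered the proteins without a probe set of their own, without saying which gene gave the signal. Of the 78 above 10000, 0 passed on each of the 3 days by limma, and 0, 0 and 2 had an unadjusted p under 0.05. Of the 21 between 100 and 4000, 7, 6 and 12 passed (33.3%, 28.6% and 57.1%), with 0, 1 and 1 of them higher, against 7.0%, 27.5% and 39.6% of all probe sets in that range.

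Other gene groups of the pathway are given for comparison, without a test between groups. The 76 mitochondrial ribosomal protein genes, which serve the separate ribosome of mitochondria, had 1 higher and 2 lower on day 1.5, 21 and 5 on day 3 and 2 and 34 on day 6 (3.95%, 34.2% and 47.4%, against 9.91%, 23.4% and 32.5% of all genes), with a median of -0.13 on day 6 against -0.011 for the cytosolic members. Of 18 other transcripts with a terminal oligopyrimidine tract, 0 rose and 2 fell on day 1.5, 1 and 3 on day 3, and 0 and 6 on day 6. These shares, 11.1%, 22.2% and 33.3%, were near those of all genes. Gas5, a host of small nucleolar RNAs, fell by 0.24 on day 6, the transcription factor subunit Btf3 by 0.24 and the histone chaperone Nap1l1 by 0.26. The elongation factor gene Eef1a1 had 0.01, and Tpt1 0.04, neither past the test, and Eef2 had -0.19 on day 3 (adjusted p = 0.036) and -0.01 on day 6.

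Among 23 genes for chaperones and surveillance of ribosomal proteins, 0 rose and 1 fell on day 1.5, 7 rose and 1 fell on day 3, and 3 rose and 5 fell on day 6 (4.35%, 34.8% and 34.8%, against 9.91%, 23.4% and 32.5% of all genes). Ipo7, an importin that carries ribosomal proteins into the nucleus, fell by 0.87 on day 6, and Lsg1, a GTPase of late large subunit maturation, fell by 0.42. Mdm2, the p53 ligase that free ribosomal proteins inhibit, rose by 0.44, but its probe set without a shared suffix had 0.19 (limma adjusted p = 0.16). Of 14 regulators known at ribosomal protein promoters or messages, 0 passed by limma on day 1.5 (1 at an unadjusted p under 0.05), 2 rose and 1 fell on day 3, and 2 rose and 4 fell on day 6, which is 21.4% and 42.9% on the later days. Larp1, which binds the oligopyrimidine tract, fell by 0.52 and Max by 0.72. Myc rose by 0.65, and its rise of 0.78 on day 3 became -0.52 against the controls of days 1.5 and 6.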

How the data were processed

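RNA from 12 samples was measured on Affymetrix mouse arrays. The authors deposited 1 RMA intensity per probe set and array, per the submitters' processing notes; the RMA version is not given in the sources used here. RMA removes background, equalises the distributions of arrays and combines probes. They lie on a linear scale, so log2 was taken before the fit. Of 45101 probe sets, 34958 had 1 gene symbol, 932 several and 9211 none. The probe set with the highest mean log2 value was kept for each of 18194 genes, with no filter on dim genes. All 49 member symbols are the same in the RefSeq table (GRCm38.p6), and 43 members had a promoter sequence.

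The fit used limma 3.58.1 (R 4.3.3), with 6 group means over 12 arrays, eBayes (6 residual and 3.04 prior degrees of freedom), and Benjamini-Hochberg adjustment over all genes, called at 0.05. The other probe sets of the members were fitted with all 45101 probe sets and adjusted over them. Since no label states separate cultures, p-values reflect only the spread among these arrays, which may be technical, and the number of arrays limits the precision. The fit was tested on simulated data.

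The members and lists were chosen with earlier results of these data known. Named genes were members past the test without overlap of arrays (up to 6 per direction and day), up to 4 per day difference and control comparison, the 4 brightest and 4 dimmest, the relatives, Fau, Rpl39l and Thap11, and up to 3 per other list past the test on day 6. Rpsa, Rps19, Rps6, Rps3, Rps10, Rps18, Rps24, Rps9, Rpl6, Rpl11, Rpl12, Rpl13a, Rpl22, Rpl37, Rpl38, Eef1a1, Eef2 and Tpt1 were named for their role, motif, probe sets or values after these were seen. Alternatives were a replicate term, other eBayes settings, array weights, only the arrays compared, no dim genes, the mean of probe sets, no shared suffix, no top 1%, median centring, quantile normalization, a pseudocount of 16, other controls for day 3, and leaving out each array. The labels do not say whether replicate numbers pair samples. Of 15 pairs of groups, deviations of same-numbered arrays correlated above 0.1 in 1 (range -0.057 to 0.17). A low correlation cannot exclude a pairing. On day 3 the 5′ part of 18S ribosomal RNA was higher on the second array in both genotypes (2098 and 4737 in controls, 1585 and 4209 in knockout cells). Plots were drawn with matplotlib 3.10.9.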

Additional observations from a re-analysis of the deposited data

Results flagged for a closer look

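For 3 members the knockout effect differed between days by a test of the difference itself in limma. For Rpl7l1 the effect of day 3 exceeded that of day 1.5 by 0.28 on the log2 scale (adjusted p = 0.028), and this call was lost without 7 of the 12 arrays in turn. For Rps19bp1 the effect of day 3 exceeded that of day 1.5 by 0.52 (adjusted p = 0.0015), and the effect of day 6 differed from that of day 3 by -0.47 (0.0024). In both genes the controls of day 3 were the arrays that stood apart. For Rpl14 the effect of day 6 differed from that of day 3 by -0.37 and from that of day 1.5 by -0.33, and there the knockout arrays of day 6 were the lowest.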

How the results depend on the processing

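The counts of called members were 3, 4 and 3 on days 1.5, 3 and 6, 2, 2 and 1 for the differences between days (3 against 1.5, 6 against 3, 6 against 1.5), and 2 and 0 for controls of days 3 and 6 against day 1.5. They moved by over 1.5 times in these settings. With trend and robust eBayes they were 10 and 7 on days 3 and 6, 5, 7 and 2 for the differences, and 7 and 1 for the controls. On probe sets without a shared suffix, which left 26 members, they were 6 on day 6, 5, 5 and 4 for the differences, and 6 and 2 for the controls. With only the arrays compared they were 1 on days 1.5 and 3 and 1 for day 3 against 1.5. Leaving out the dimmest 40% of genes gave 4 for day 3 against 1.5 and 5 for controls of day 3. The mean of all probe sets gave 1 for day 3 against 1.5, 2 for day 6 against 1.5 and 4 for controls of day 3, which were 5 with median centring and 4 with a pseudocount of 16. The median log2 fold change of the members on the 3 days was -0.090, -0.091 and -0.074 without a shared suffix. Without members in the top 1% of intensity it was -0.099 on day 1.5 and -0.105 on day 6, and the medians of the differences were 0.074 (day 3 against 1.5) and -0.072 (day 6 against 3). For controls of day 3 against day 1.5 it was -0.097, -0.125 and, with median centring, -0.052. Controls of day 6 against day 3, which had 5 members called, were not among the planned comparisons; the count was 3 with quantile normalization or only the arrays compared, and 8 with trend and robust eBayes. The cause was not tested. With trend and robust eBayes the share of all genes called rose as well, to 28.9% on day 3 and 36.6% on day 6 from 23.4% and 32.5%. For the other settings the share of all genes is not given here, so a moved count is not read as a result about the members.

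Leaving out each array gave 1 to 3, 3 to 4 and 2 to 4 members on the 3 days, 1 to 3 for day 3 against 1.5, 2 to 3 for day 6 against 3, 1 to 2 for day 6 against 1.5, and 2 to 2 and 0 to 0 for the controls. With a replicate block over all arrays, whose numbers are not stated to pair samples, Rps19bp1 on day 1.5 (adjusted p = 0.061) and Rpl14 on day 3 (0.054) lost their calls. Against controls of days 1.5 and 6, the day 3 values of Rpl7l1 (-0.013), Rps19bp1 (-0.12) and Myc (-0.52) turned sign. That setting compares different days, so genotype and day cannot be told apart in it. Rps25 on days 1.5 and 6 and Rpl14 on day 6 kept direction and call in each setting run. Not every setting could move them. Each gene has only 1 probe set with 1 symbol, and its suffix is plain. The mean of probe sets and the setting without a shared suffix therefore used the same values. The other controls were fitted for day 3 only. The brighter probe sets that list these genes beside other symbols, given above, did not pass on any day. The number of arrays, probes shared between genes and intensities near the top of the scale limit what small changes of the bright members can be seen.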
